A study of Mus musculus with 35 samples.

Results

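Inflammasomes are protein platforms that sense danger in the cytosol. A sensor such as NLRP3 or AIM2 gathers the adaptor ASC, encoded by Pycard, which activates caspase-1; caspase-1 matures the cytokines interleukin-1β and interleukin-18 and cleaves gasdermin D, whose fragment opens pores in the membrane, a lytic death called pyroptosis. Necroptosis is a second lytic death, in which the kinase RIPK3 activates the membrane-permeabilising protein MLKL when caspase-8, its brake, is not active. In brain tissue these genes are known mainly from microglia and from myeloid cells that enter from the blood.

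The 9 genes described here were chosen by name, with earlier results of these data known. Counts of members called, and the shares of all genes beside them, are therefore a description. The genes are the sensors Nlrp3 and Aim2, the adaptor Pycard, the inflammatory caspases Casp1 and Casp4 (mouse caspase-11) and the pore gene Gsdmd. The others are the death receptor caspase Casp8 and the necroptosis genes Ripk3 and Mlkl. They are 9 of the 21203 genes in the table, and all 9 passed the filter on low counts that left 17131 genes tested. RNA-seq was run on the tissue around the injection site in the left hemisphere of male C57BL/6NCrl mice, 8 to 9 weeks old at the start. Mice received a closed head injury (CHI) and, 5 days later, an injection into the left hippocampus of phosphate-buffered saline (PBS), of mesenchymal stromal cells (MSCs), or of MSCs transfected with synthetic mRNA for interleukin-4 (IL-4 MSCs), the cytokine that drives macrophages to the state called M2-like. Tissue was taken 1 week post-injury (wpi), 2 days after the injection, or 3 wpi, 16 days after it, from 5 mice in each group except PBS at 3 wpi, which has 4 because the study left 1 library out. The 5 Sham mice had neither the impact nor the injection and were pooled from both times (2 at 1 week, 3 at 3 weeks). Injury and injection therefore cannot be told apart in any comparison with Sham. The MSCs were primary cells of 1 vendor lot from the same mouse strain, so their transcripts cannot be told apart from those of the host.

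The 34 libraries held 29838423 to 41554322 estimated counts each, at which 3 counts correspond to 0.0721 to 0.101 CPM, the library-size-scaled count used for levels below. The tissue was labelled as left cortex, but every group also carried markers of the hippocampus, the striatum and the choroid plexus. The summed level of 8 striatum markers was 187 to 205 CPM in the 2 Sham mice of week 1, 582 to 733 CPM in the 3 of week 3, and 310 to 2150 CPM in IL-4 MSC mice at 3 wpi. A further 3 libraries stood apart by S100a9, a calprotectin subunit abundant in neutrophils: 6.1 CPM in PBS mouse 3 at 1 wpi (other PBS mice at most 1.19), 7.55 CPM in MSC mouse 3 at 1 wpi (others at most 1.67), and 6.33 CPM in MSC mouse 5 at 3 wpi (others at most 0.573). Without these 3 libraries the counts of members called against Sham at 1 wpi, given below, were again 7, 9 and 9. Counts of members that moved are named where they stand, as are some calls of other pathway genes.

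At 1 wpi most of the inflammasome and necroptosis genes were higher than in Sham in each injured group, and 7 of the 9 were also higher after IL-4 MSCs than after PBS. Relative to Sham, 7 of 9 members were called higher in PBS mice, 9 of 9 in MSC mice and 9 of 9 in IL-4 MSC mice (edgeR quasi-likelihood test, Benjamini-Hochberg adjusted p under 0.05 over all genes tested). Of all genes tested, 8.73%, 11% and 18.4% were called higher in these comparisons. The median log2 fold change of the 9 members was 0.81 with PBS, 0.91 with MSCs and 1.72 with IL-4 MSCs, against medians of -0.005, -0.008 and -0.018 over all genes tested. In the same order, 7, 8 and 9 members did not overlap Sham, as for 10.2%, 14% and 28.8% of all genes tested. The 3 comparisons share the Sham mice. In whole tissue, more cells of a type and more RNA per cell cannot be told apart.

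**Figure D1:**
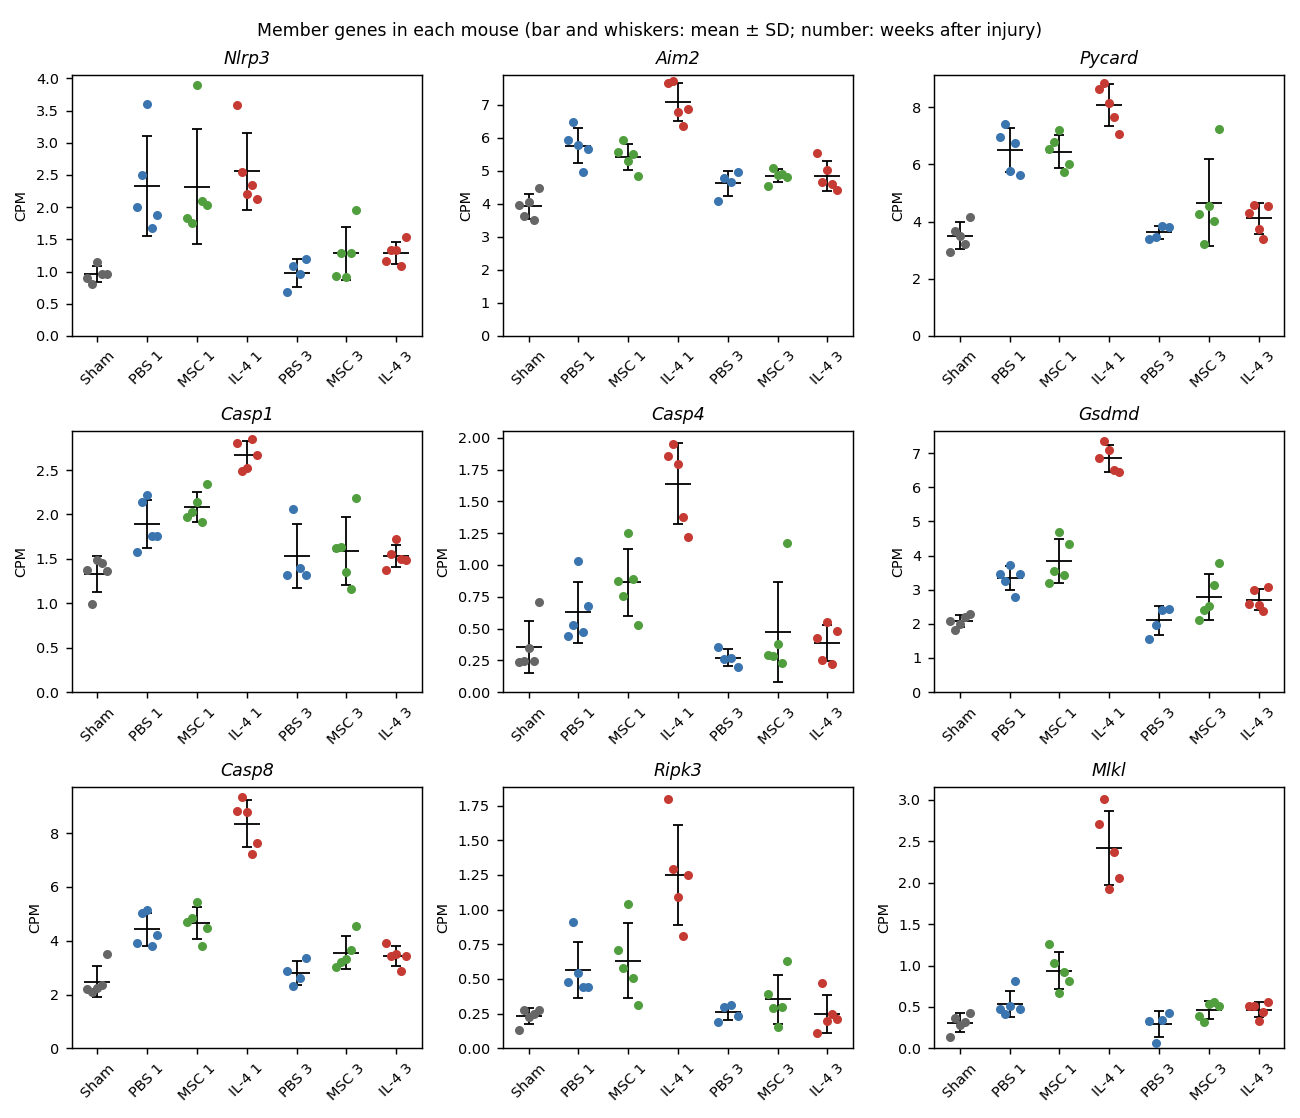
CPM of each of the 9 members (vertical axes, linear from 0) in every mouse of the 7 groups (horizontal axes; Sham, then PBS, MSC and IL-4 MSC groups with the number of weeks after injury); points are mice, bars and whiskers the mean ± SD of 4 or 5 mice. For Mlkl, the 5 IL-4 MSC mice at 1 wpi lie between 1.93 and 3.01 CPM, above all other mice.

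Both sensors rose in all 3 injured groups. Nlrp3, the sensor of membrane damage and ion efflux (chromosome 11, 59541568 to 59566956, plus strand, GRCm38), was at 0.906, 0.804, 1.15, 0.96 and 0.957 CPM in the 5 Sham mice. At 1 wpi it was at 2, 2.5, 3.6, 1.67 and 1.88 CPM in the PBS mice, at 1.83, 1.76, 3.9, 2.1 and 2.03 CPM in the MSC mice, and at 3.59, 2.55, 2.21, 2.34 and 2.12 CPM in the IL-4 MSC mice. Every injured mouse at 1 wpi was above every Sham mouse, and the 3 injured groups overlapped. The log2 fold changes against Sham were 1.28 ± 0.23 (SE) with PBS, 1.28 ± 0.23 with MSCs and 1.42 ± 0.23 with IL-4 MSCs, with edgeR adjusted p of 2e-04, 0.000141 and 1.07e-05. Aim2, which binds cytosolic double-stranded DNA (chromosome 1, 173350879 to 173466040, plus strand), ranged from 3.52 to 4.48 CPM in Sham, 4.96 to 6.47 CPM with PBS, 4.83 to 5.92 CPM with MSCs and 6.35 to 7.7 CPM with IL-4 MSCs at 1 wpi. Its log2 fold changes against Sham were 0.56 ± 0.08, 0.47 ± 0.08 and 0.85 ± 0.08. Aim2 belongs to a family of similar genes, and its estimated counts were whole numbers (within 0.001) in 0 of 34 libraries, so reads shared with other transcripts were split in estimating them.

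Pycard, the adaptor ASC (chromosome 7, 127989708 to 127993867, minus strand), rose in all injured groups. It ranged from 2.92 to 4.17 CPM in Sham and, at 1 wpi, from 5.63 to 7.43 CPM with PBS, 5.73 to 7.21 CPM with MSCs and 7.06 to 8.85 CPM with IL-4 MSCs. No injured mouse overlapped Sham, and the log2 fold changes were 0.9 ± 0.14, 0.88 ± 0.14 and 1.21 ± 0.14. Per transcript length its rise was steeper, from 3.08 ± 0.552 TPM (a level scaled by transcript length; mean ± SD, n = 5) in Sham to 12.9 ± 1.62 TPM (n = 5) with IL-4 MSCs. TPM also depends on which of a gene's transcripts the reads were assigned to, and the change in TPM was not tested.

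The inflammatory caspase genes lie side by side on chromosome 9. Casp1, which encodes the caspase that matures interleukin-1β (5298517 to 5307265, plus strand), ranged from 0.99 to 1.49 CPM in Sham, 1.58 to 2.22 CPM with PBS, 1.91 to 2.34 CPM with MSCs and 2.49 to 2.85 CPM with IL-4 MSCs at 1 wpi. The IL-4 MSC mice lay above every mouse of the other 3 groups, and the log2 fold changes against Sham were 0.5 ± 0.14, 0.64 ± 0.14 and 1 ± 0.14. The call for PBS was the least firm: its edgeR adjusted p of 0.0143 became 0.054 without Sham mouse 2, 0.0544 without PBS mouse 2, 0.0501 with only the compared groups fitted and 0.23 against only the 2 Sham mice of week 1, within a range of 0.00904 to 0.23 over 18 alternatives. Against those 2 Sham mice the MSC call was lost as well (adjusted p = 0.0659, range 0.000299 to 0.0659).

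Casp4, whose product binds cytosolic lipopolysaccharide and cleaves gasdermin D directly (chromosome 9, 5308828 to 5336783, plus strand), was at 0.235, 0.247, 0.344, 0.246 and 0.71 CPM in Sham. At 1 wpi it was at 0.444, 0.529, 1.03, 0.471 and 0.674 CPM with PBS, at 0.876, 0.759, 1.25, 0.892 and 0.53 CPM with MSCs, and at 1.86, 1.95, 1.79, 1.38 and 1.22 CPM with IL-4 MSCs. The PBS and MSC ranges overlapped Sham through Sham mouse 5, and the IL-4 MSC range lay above Sham. The log2 fold change was 2.2 ± 0.35 with IL-4 MSCs (edgeR adjusted p = 6.62e-06) and 1.28 ± 0.36 with MSCs (adjusted p = 0.0123, and 0.0533 without MSC mouse 3, in a range of 0.00198 to 0.0533 over 18 alternatives). With PBS it was 0.81 ± 0.38 (95% interval 0.05 to 1.58, edgeR adjusted p = 0.164).

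For Gsdmd and Casp8, as for Casp1 and Mlkl, the IL-4 MSC mice at 1 wpi lay apart from the other groups. Gsdmd, the pore former (chromosome 15, 75862327 to 75867408, plus strand), was at 2.08, 1.82, 2, 2.21 and 2.28 CPM in Sham. At 1 wpi it was at 3.45, 3.25, 3.73, 2.8 and 3.46 CPM with PBS, at 3.2, 3.55, 4.7, 3.44 and 4.34 CPM with MSCs, and at 6.86, 7.37, 7.09, 6.5 and 6.45 CPM with IL-4 MSCs. All injured mice exceeded Sham, and all IL-4 MSC mice exceeded all other mice. The log2 fold changes against Sham were 0.68 ± 0.14 with PBS, 0.88 ± 0.13 with MSCs and 1.72 ± 0.13 with IL-4 MSCs (edgeR adjusted p of 0.000605, 1.17e-05 and 4.49e-12). Casp8 (chromosome 1, 58795374 to 58847503, plus strand) was at 2.21, 2.1, 2.23, 2.34 and 3.49 CPM in Sham. At 1 wpi it was at 3.93, 5.02, 5.14, 3.8 and 4.22 CPM with PBS, at 4.71, 4.86, 5.45, 3.82 and 4.46 CPM with MSCs, and at 8.81, 9.35, 8.78, 7.22 and 7.64 CPM with IL-4 MSCs. Again no injured mouse overlapped Sham, and the IL-4 MSC mice stood above the other groups, with log2 fold changes of 0.84 ± 0.14, 0.91 ± 0.13 and 1.76 ± 0.13. The Casp8 counts, like those of Aim2, were whole numbers in 0 of 34 libraries at the same tolerance.

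The necroptosis pair was scarce in Sham and gave the largest fold changes among the members after IL-4 MSCs. Ripk3, the kinase (chromosome 14, 55784995 to 55788865, minus strand), was at 0.134, 0.278, 0.229, 0.246 and 0.278 CPM in Sham. At 1 wpi it was at 0.475, 0.913, 0.546, 0.44 and 0.44 CPM with PBS, at 0.712, 0.577, 1.04, 0.51 and 0.312 CPM with MSCs, and at 1.8, 1.29, 1.09, 0.809 and 1.25 CPM with IL-4 MSCs. No injured mouse overlapped Sham, while the injured groups overlapped each other. The log2 fold changes against Sham were 1.27 ± 0.35, 1.43 ± 0.35 and 2.39 ± 0.33 (edgeR adjusted p of 0.0127, 0.00336 and 6.07e-07); the PBS call was lost without PBS mouse 2 (adjusted p = 0.0827) and against the Sham mice of week 1 alone (adjusted p = 0.0938), in a range of 0.00811 to 0.0938 over 18 alternatives.

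Mlkl, the executioner of necroptosis (chromosome 8, 111311797 to 111338177, minus strand), was at 0.134, 0.371, 0.286, 0.32 and 0.432 CPM in Sham. At 1 wpi it was at 0.475, 0.409, 0.514, 0.817 and 0.469 CPM with PBS, at 1.26, 1.03, 0.667, 0.924 and 0.811 CPM with MSCs, and at 2.71, 3.01, 1.93, 2.37 and 2.06 CPM with IL-4 MSCs. The group means rose in that order, but the PBS mice overlapped both Sham and the MSC mice. The difference between MSCs and PBS was not called (edgeR adjusted p = 0.67). The MSC mice did not overlap Sham, and the IL-4 MSC mice were above every other mouse. The log2 fold changes against Sham were 0.77 ± 0.29 with PBS (edgeR adjusted p = 0.0744), 1.58 ± 0.27 with MSCs (adjusted p = 6.88e-05) and 2.95 ± 0.26 with IL-4 MSCs (adjusted p = 7.12e-11), the last a 7.7-fold difference. These levels rest on few reads: Ripk3 had as few as 4 counts in a Sham library, Mlkl 4, and Casp4 7.

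Upstream sequence was examined for the members that RefSeq's promoter table (GRCm38.p6) holds, 8 of the 9. A set of 3 motifs was searched on both strands in the 250 bases before each start site. They were the core of the interferon-stimulated response element (GAAANNGAAA), the spacing bound by STAT6 downstream of IL-4 (TTCNNNNGAA), and a motif like that of NF-κB (GGGNNTTTCC). They matched 2.98%, 5.85% and 1.41% of all 32851 promoters in the table. Of the 8 members, 0 held the first and 0 the second, and 1, Casp4, held the NF-κB-like motif, at 2 places (positions -93 to -84 and -14 to -5 from the start site). The promoters of 3 members are shown. Casp4 is shown for its matches, in capitals, and Mlkl as the member with the largest difference between treatments. Nlrp3 is shown as a member called higher than Sham in all 3 injured groups at 1 wpi and not called between treatments. They are written 5′ to 3′ on the gene's strand, and the last 2 hold no match to these motifs. The start sites are those of RefSeq and not always those of the gene spans given here, which are GENCODE's: the second Casp4 match and the windows of Aim2 and Casp8 lie inside those spans. The windows are chr9:5308599-5308848 (plus strand), chr8:111338206-111338455 (minus strand) and chr11:59541319-59541568 (plus strand).
Casp4: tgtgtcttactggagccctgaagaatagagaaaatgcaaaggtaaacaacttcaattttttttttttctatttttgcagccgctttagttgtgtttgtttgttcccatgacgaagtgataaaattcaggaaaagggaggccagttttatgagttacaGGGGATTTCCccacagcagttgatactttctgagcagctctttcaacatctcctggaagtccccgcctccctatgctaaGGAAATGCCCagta
Mlkl: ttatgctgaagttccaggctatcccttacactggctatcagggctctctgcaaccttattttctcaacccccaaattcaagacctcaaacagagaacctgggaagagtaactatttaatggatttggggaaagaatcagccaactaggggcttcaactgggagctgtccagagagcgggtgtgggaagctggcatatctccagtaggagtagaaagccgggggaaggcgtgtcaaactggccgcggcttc
Nlrp3: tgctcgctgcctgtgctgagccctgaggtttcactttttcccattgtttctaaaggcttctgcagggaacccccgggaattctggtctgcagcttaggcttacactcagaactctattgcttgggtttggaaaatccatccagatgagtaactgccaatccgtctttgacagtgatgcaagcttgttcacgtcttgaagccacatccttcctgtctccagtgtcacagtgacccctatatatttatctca
A match is a run of letters and not a measured binding site, and the absence of one says only that these letters are not in this window.

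**Figure D2:**
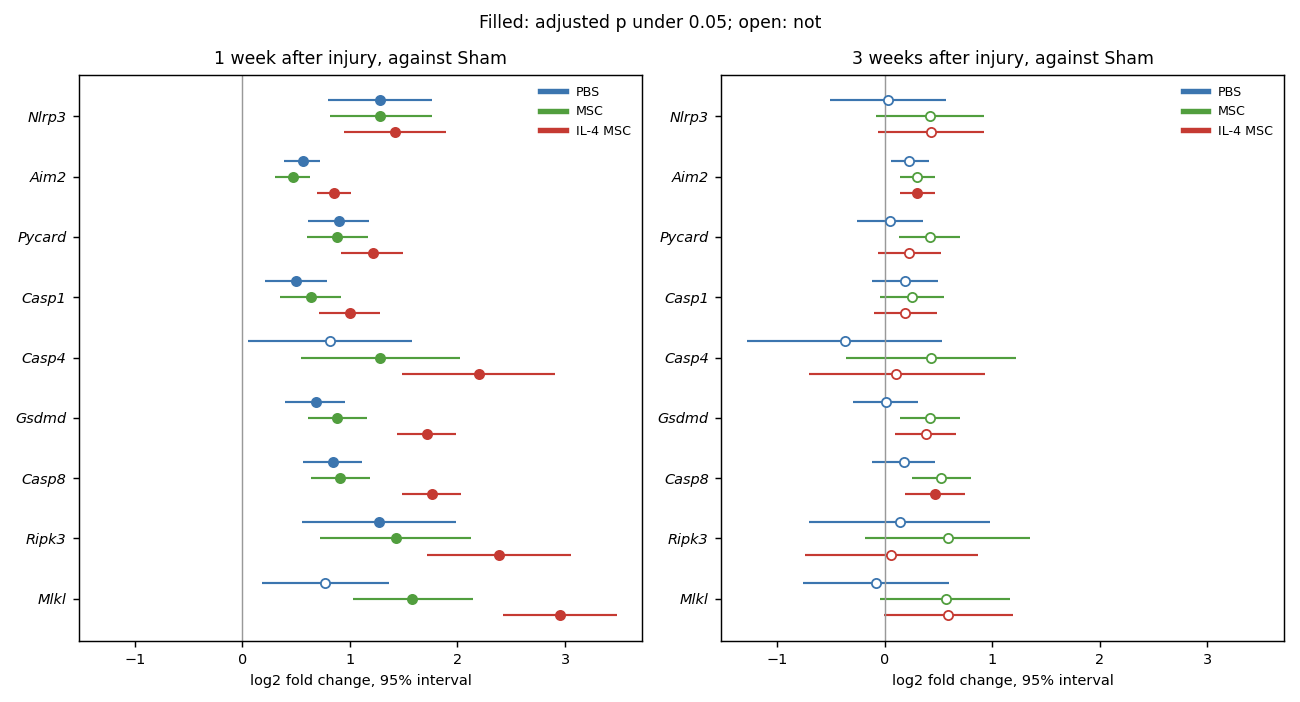
Log2 fold change of each member against Sham (horizontal axes, with 95% intervals) at 1 wpi (left) and 3 wpi (right) for PBS, MSC and IL-4 MSC mice; filled points passed an edgeR adjusted p of 0.05. At 1 wpi 7, 9 and 9 members are filled, at 3 wpi 0, 0 and 2.

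Compared per transcript length, the members were few transcripts in Sham, led by Aim2 at 4.76 ± 0.876 TPM (mean ± SD, n = 5), Gsdmd at 3.58 ± 0.28 TPM and Pycard at 3.08 ± 0.552 TPM. Casp8 followed at 2.28 ± 0.677 TPM and Casp1 at 2.02 ± 0.311 TPM, which did not differ beyond their spread. Casp4 at 0.895 ± 0.687 TPM and Nlrp3 at 0.86 ± 0.312 TPM, and Ripk3 at 0.425 ± 0.205 TPM and Mlkl at 0.409 ± 0.245 TPM, were also within each other's spread. With IL-4 MSCs at 1 wpi the order was Pycard at 12.9 ± 1.62 TPM, Gsdmd at 10 ± 1.16 TPM, Aim2 at 9.43 ± 0.992 TPM and Casp8 at 8.81 ± 0.908 TPM, the last 3 within their spread. Casp1 (4.38 ± 0.544 TPM) came next. Mlkl (3.4 ± 0.557 TPM) was by then level with Casp4 (3.19 ± 0.827 TPM) and above Nlrp3 (1.81 ± 0.619 TPM) and Ripk3 (1.68 ± 0.59 TPM), which overlapped.

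The comparison between treatments asks whether IL-4 expression by the MSCs changed the response to injury. IL-4 MSCs differed from plain MSCs also by the transfection and the synthetic mRNA, and from PBS by the cells as well, and these cannot be told apart from IL-4 here. At 1 wpi, 7 of 9 members were called higher with IL-4 MSCs than with PBS, where 11.2% of all genes tested were called higher. Mlkl differed most, by a log2 fold change of 2.17 ± 0.24 (edgeR adjusted p = 5.12e-08, a 4.51-fold difference). Casp4 followed at 1.38 ± 0.33, Ripk3 at 1.12 ± 0.29, Gsdmd at 1.04 ± 0.13 and Casp8 at 0.92 ± 0.13, with edgeR adjusted p of 0.00268, 0.00678, 2.86e-07 and 2.26e-06. Casp1 at 0.49 ± 0.14 and Aim2 at 0.29 ± 0.08 differed less (edgeR adjusted p of 0.00991 and 0.0073). For 5 of these members, Mlkl, Casp4, Gsdmd, Casp8 and Casp1, the IL-4 MSC and PBS mice did not overlap, as for 14.9% of all genes tested. The sensor Nlrp3 was at 0.14 ± 0.22 (95% interval -0.3 to 0.58, edgeR adjusted p = 0.743) and the adaptor Pycard at 0.31 ± 0.13 (0.04 to 0.58, adjusted p = 0.112). So the 2 genes upstream of caspase-1 in the NLRP3 inflammasome were the members not called here; whether their changes differed from those of the other members was not tested.

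Relative to plain MSCs, 5 of 9 members were called higher with IL-4 MSCs at 1 wpi, where 7.66% of all genes tested were. These were Mlkl at a log2 fold change of 1.36 ± 0.23, Casp8 at 0.84 ± 0.13, Gsdmd at 0.83 ± 0.13, Ripk3 at 0.96 ± 0.29 and Aim2 at 0.38 ± 0.08. The edgeR adjusted p was 5.58e-05 for Mlkl, 1.22e-05 for Casp8, 1.43e-05 for Gsdmd, 0.0305 for Ripk3 and 0.000789 for Aim2. Casp4 at 0.92 ± 0.32 (0.27 to 1.56), Casp1 at 0.36 ± 0.13 (0.09 to 0.63), Pycard at 0.32 ± 0.13 (0.05 to 0.59) and Nlrp3 at 0.13 ± 0.22 (-0.31 to 0.57) were not called. Without the 3 libraries richest in S100a9, Casp4, Casp1 and Pycard passed as well and the count was 8. The Ripk3 call was lost without any of 5 mice, MSC mice 2, 4 and 5 and IL-4 MSC mice 1 and 2, at edgeR adjusted p of 0.0663, 0.0781, 0.113, 0.115 and 0.0595 in that order, and with only the compared groups fitted (0.0589), in a range of 0.00275 to 0.115 over 17 alternatives.

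Between plain MSCs and PBS at 1 wpi, 0 of 9 members were called by edgeR or by DESeq2, where edgeR called 0.123% of all genes tested higher. An unadjusted p under 0.05 held for 1 member (Mlkl) and for 774 of the 17131 genes. Mlkl was at a log2 fold change of 0.81 ± 0.25 (0.29 to 1.33, edgeR adjusted p = 0.67). The other 8 lay between -0.09 for Aim2 (-0.25 to 0.07) and 0.47 for Casp4 (-0.23 to 1.16).

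**Figure D3:**
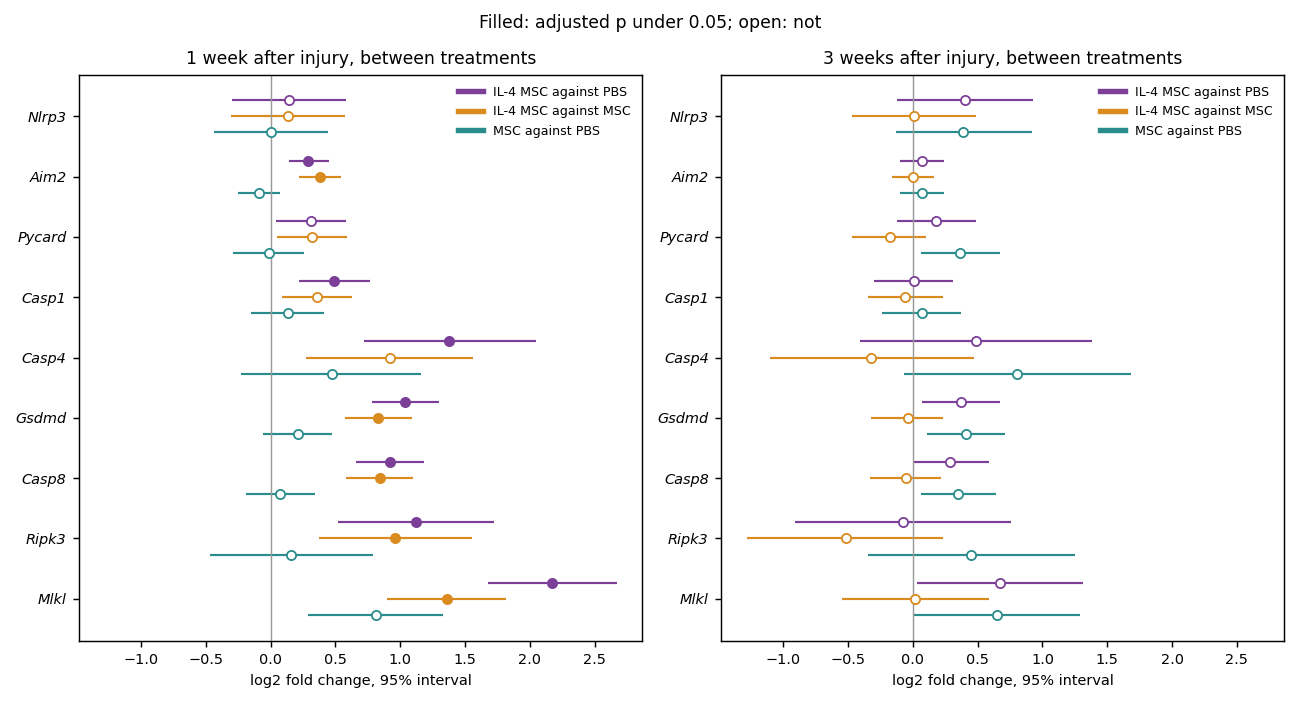
Log2 fold change of each member between treatments of the same week (horizontal axes, with 95% intervals) at 1 wpi (left) and 3 wpi (right); filled points passed an edgeR adjusted p of 0.05. At 1 wpi 7 members are filled for IL-4 MSCs against PBS, 5 for IL-4 MSCs against MSCs and 0 for MSCs against PBS, and at 3 wpi 0 are.

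Markers of several cell types moved with these members at 1 wpi. The 6 genes listed for infiltrating monocytes and macrophages (Ccr2, Ly6c2, Ms4a7, Mrc1, Cd163, F10) summed to 10.4 to 17.2 CPM in Sham, 18.2 to 22.3 CPM with PBS, 17.5 to 28.9 CPM with MSCs and 139 to 173 CPM with IL-4 MSCs, and 6 of 6 were called higher with IL-4 MSCs than with PBS. The 6 genes shared by microglia and macrophages (among them Aif1 and Csf1r) summed to 158 to 229 CPM in Sham, 279 to 342 CPM with PBS, 301 to 375 CPM with MSCs and 372 to 450 CPM with IL-4 MSCs; 4 of 6 were higher with IL-4 MSCs than with PBS. Of the 6 genes of resident microglia, 5 were called higher than Sham in each of the 3 groups, and between IL-4 MSCs and PBS 1 of 6 was called higher and 1 lower. The 6 neutrophil genes summed to 7.9 to 10.7 CPM in Sham, 7.92 to 21.3 CPM with PBS, 9.01 to 22.7 CPM with MSCs and 12.4 to 19 CPM with IL-4 MSCs. Of their 5 tested genes, 2 were higher with IL-4 MSCs than with PBS. These were Retnlg, a resistin-like gene, at 2.44 to 4.8 CPM with IL-4 MSCs and at most 0.129 CPM with PBS, and Mmp8, a collagenase. The calprotectin genes did not pass: S100a8 was at 0.477 to 1.86 CPM with IL-4 MSCs and 0.733 to 4.5 CPM with PBS, and S100a9 at 0.505 to 2.16 CPM and 0.557 to 6.1 CPM. Endothelial genes were at 174 to 193 CPM with PBS and 250 to 313 CPM with IL-4 MSCs, with 6 of 6 called higher. Fibroblast and stromal genes, which the injected cells would also express, were at 172 to 255 CPM with PBS, 261 to 691 CPM with MSCs and 341 to 443 CPM with IL-4 MSCs, with 3 of 6 higher with IL-4 MSCs than with PBS. Of the 6 T cell genes 1 was higher. Astrocyte genes summed to 1510 to 1750 CPM in Sham and 2380 to 3150 CPM over the 3 injured groups, with 5 of 6 called higher than Sham in each and 0 of 6 between IL-4 MSCs and PBS by edgeR. Neuron genes were lower than Sham for 3 of 6 with PBS, 2 with MSCs and 5 with IL-4 MSCs. Cortex genes were lower than Sham for 3 of 6 with PBS, 1 with MSCs and 3 with IL-4 MSCs, and hippocampus genes for 0, 0 and 3 of 6. Of the 17131 genes tested, 862, 1181 and 3173 were called lower than Sham in the same order. No listed marker was at 0 in all mice of any group at 1 wpi. The part of these cell types in the members' differences was not tested.

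Other genes of the same pathways were read from a list of 55, of which 53 were tested. This list was also chosen with earlier results of these data known. Against Sham at 1 wpi, 20 of 53 were called higher with PBS, 25 with MSCs and 32 with IL-4 MSCs, where 8.73%, 11% and 18.4% of all genes tested were. IL-4 MSC mice exceeded PBS mice in 23 of the 53 genes (11.2% of all genes tested) and plain MSC mice in 19 (7.66%). Against PBS, the called genes were 6 of 11 other sensors, 1 of 5 partners of NLRP3, the 1 other inflammatory caspase, 1 of 6 cytokines and antagonists, 0 of 3 other gasdermins and rupture genes, 8 of 15 genes of necroptosis and death receptors, and 6 of 12 apoptosis genes. These counts rest partly on the libraries richest in S100a9. Without them the antagonist gene Il1rn went from 0.3 to 1.86 ± 0.24 (SE) on the log2 scale (edgeR adjusted p of 0.809 and 7.47e-07). Nlrp12, Traf2 and Bcl2 also passed, and Tradd and Bax no longer did. Some calls in the other 1 wpi comparisons moved too, such as Il1rn with MSCs against Sham (edgeR adjusted p of 0.0167, then 0.111).

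Among sensors, Nlrp1b, which detects pathogen proteases, averaged 0.762 ± 0.132 CPM (SD, n = 5) in Sham, 1.44 ± 0.211 CPM with PBS, 1.54 ± 0.344 CPM with MSCs and 3.99 ± 0.4 CPM with IL-4 MSCs, all at 1 wpi. Between IL-4 MSCs and PBS it rose by 1.46 ± 0.16 (SE) on the log2 scale (edgeR adjusted p = 2.06e-08). P2rx7, the ATP-gated channel that triggers NLRP3, rose less, by a log2 fold change of 0.39 ± 0.06 between the same groups (edgeR adjusted p = 1.38e-05). Casp12, the caspase gene next to Casp4, averaged 1.03 ± 0.11 CPM in Sham, 1.23 ± 0.161 CPM with PBS, 1.98 ± 0.418 CPM with MSCs and 2.43 ± 0.314 CPM with IL-4 MSCs. Nlrp1b and the Naip genes of the list have near-identical copies, so their counts are uncertain.

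Of the 2 cytokines that caspase-1 matures, Il1b was called higher than Sham at 1 wpi and Il18 was not. Il18 averaged 10.5 ± 0.632 CPM (SD, n = 5) in Sham and 10.3 ± 0.524 CPM with IL-4 MSCs at 1 wpi, which differed by -0.03 ± 0.07 on the log2 scale (SE; 95% interval -0.17 to 0.11, edgeR adjusted p = 0.788). Its secreted antagonist Il18bp rose with IL-4 MSCs relative to PBS by 0.33 ± 0.1 on the log2 scale (edgeR adjusted p = 0.0172). Il1b was at 0.254, 0.745, 5.33, 0.471 and 1.06 CPM in the PBS mice, 0.383, 0.789, 6.97, 0.318 and 0.468 CPM in the MSC mice, and 2.19, 0.822, 1.07, 0.989 and 0.639 CPM in the IL-4 MSC mice at 1 wpi, against at most 0.401 CPM in Sham. Mouse 3 of the PBS group and mouse 3 of the MSC group, which were also the highest for Nlrp3 in their groups, carried most of the Il1b of those groups. With all mice it was called higher than Sham in all 3 groups, by 3.32 ± 0.91 on the log2 scale with PBS, 3.54 ± 0.9 with MSCs and 2.86 ± 0.93 with IL-4 MSCs, and the IL-4 MSC difference from PBS was -0.46 ± 0.7 (-1.89 to 0.97, edgeR adjusted p = 0.732). Without the 3 libraries richest in S100a9 the Il1b mean was 0.631 CPM in place of 1.57 with PBS and 0.49 in place of 1.79 with MSCs. The calls against Sham held in that fit (2.04 ± 0.5, 1.66 ± 0.52 and 2.89 ± 0.46, edgeR adjusted p of 0.0055, 0.029 and 8.55e-06). The sign of both differences between treatments turned: IL-4 MSCs were at 0.85 ± 0.4 against PBS (edgeR adjusted p = 0.172) and, from -0.68 with all mice, at 1.22 ± 0.41 against MSCs (adjusted p = 0.0591). Il1a, which acts without caspase-1, rose against Sham by 1.63 ± 0.23 with IL-4 MSCs and was at 0.32 ± 0.2 relative to PBS (edgeR adjusted p = 0.318). Ninj1, which ruptures the membrane after the pores open, was called higher than Sham in all 3 groups. Its log2 fold changes were 0.27 with PBS, 0.29 with MSCs and 0.44 ± 0.09 with IL-4 MSCs. The MSC call was lost without the 3 libraries richest in S100a9 (edgeR adjusted p of 0.0238, then 0.0928). With IL-4 MSCs relative to PBS it was at 0.17 (edgeR adjusted p = 0.221).

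Among necroptosis genes, Zbp1, a sensor of Z-form nucleic acid that recruits RIPK3, ranged from 0.0492 to 0.278 CPM in Sham (2 to 9 counts), 0.625 to 2.41 CPM with PBS, 1.12 to 3.44 CPM with MSCs and 5.63 to 9.12 CPM with IL-4 MSCs at 1 wpi. The 3 injured groups did not overlap Sham and the IL-4 MSC mice exceeded all others. The log2 fold change between IL-4 MSCs and PBS was 2.33 ± 0.29 (edgeR adjusted p = 4.08e-07). Ripk1, the kinase upstream of RIPK3, averaged 7.55 ± 0.606 CPM (SD, n = 5) in Sham and 15 ± 1.39 CPM with IL-4 MSCs, a log2 fold change of 0.99 ± 0.08 (SE), and exceeded PBS by 0.57 ± 0.08. Bak1, a pore former of the mitochondrial membrane in apoptosis, exceeded PBS by 0.43 ± 0.06 (edgeR adjusted p = 6.76e-06).

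**Figure D4:**
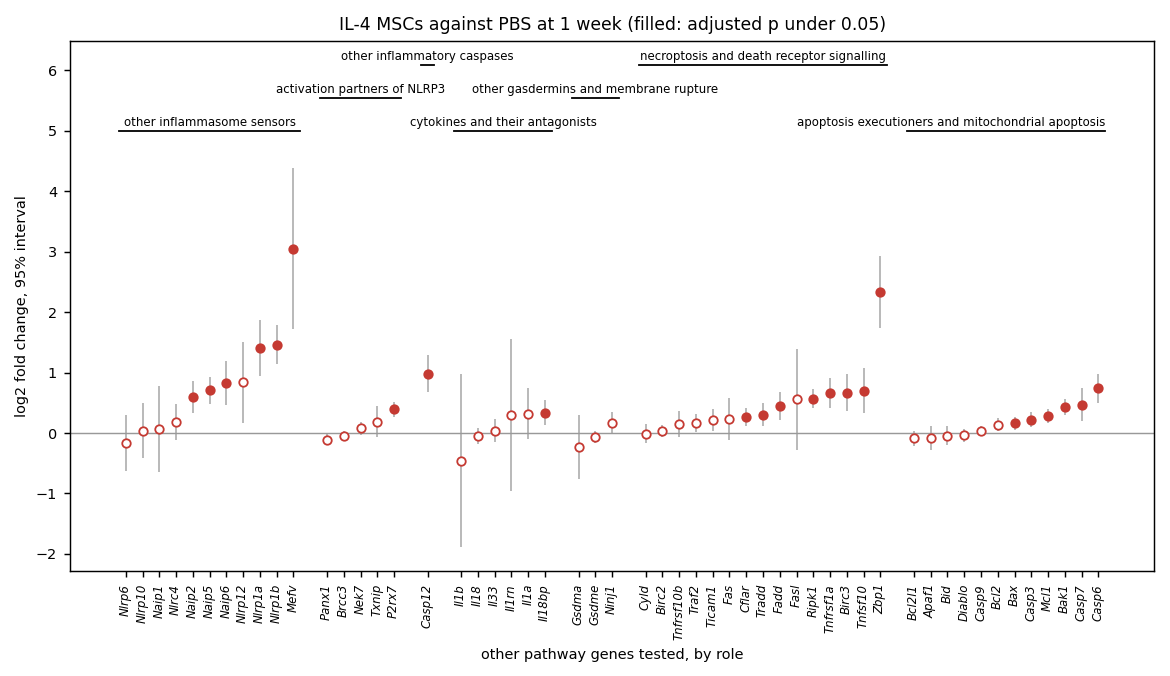
Log2 fold change between IL-4 MSCs and PBS at 1 wpi (vertical axis, with 95% intervals) of the 53 other pathway genes tested, grouped by role (horizontal axis); filled points passed an edgeR adjusted p of 0.05. Of the 53 genes 23 are filled, and all 23 lie above 0.

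At 3 wpi few members were called against Sham. In PBS mice 0 of 9 members were called by edgeR or DESeq2, where edgeR called 0.0233% of all genes tested higher. At an unadjusted p under 0.05 there was 1 member, and there were 914 of the 17131 genes tested. In MSC mice 0 of 9 were called by edgeR, which called 1.11% of all genes tested higher, and 1 (Casp8) by DESeq2. An unadjusted p under 0.05 held for 4 members and for 1886 of the 17131 genes. Casp8 and Aim2 sat at the threshold, with edgeR adjusted p of 0.0503 and 0.0562. In IL-4 MSC mice 2 of 9 were called higher (2.76% of all genes tested): Aim2 by 0.3 ± 0.08 on the log2 scale (edgeR adjusted p = 0.0279) and Casp8 by 0.47 ± 0.14 (adjusted p = 0.0443). Neither passed against the 3 Sham mice of week 3 alone (edgeR adjusted p of 0.194 and 0.267) or with the striatum markers as a covariate (0.234 and 0.299), the latter the highest values over 18 alternatives, whose lowest were 0.0125 and 0.00563. The count was also 0 without Sham mouse 1, 2, 3 or 4 or IL-4 MSC mouse 1 or 3, and 1 without IL-4 MSC mouse 5, with the replicate block or with no filter. Other markers moved in these mice too. Of the striatum genes, 7 of 8 were higher than Sham and 8 of 8 higher than with PBS, and 1 of 6 hippocampus genes was lower than Sham. Against Sham, 3 of 6 microglia genes, 4 of 6 genes shared by microglia and macrophages and 5 of 6 T cell genes were higher. Relative to PBS, 4 of 6 T cell genes were higher. Beyond the fit with the striatum covariate, the part of these cells and regions was not tested.

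Mlkl at 3 wpi was at 0.331, 0.0655, 0.337 and 0.429 CPM with PBS, 0.388, 0.315, 0.534, 0.563 and 0.516 CPM with MSCs, and 0.508, 0.506, 0.325, 0.437 and 0.557 CPM with IL-4 MSCs. PBS mouse 2 rested on 2 counts, and all 3 groups overlapped Sham. Gsdmd ranged from 1.57 to 2.44 CPM with PBS, 2.1 to 3.78 CPM with MSCs and 2.37 to 3.08 CPM with IL-4 MSCs. Casp4 was at 0.291, 0.287, 0.377, 0.232 and 1.17 CPM in the MSC mice, where mouse 5 stood alone; this mouse, one of the 3 rich in S100a9, was also the highest of its group for every member except Aim2 and Mlkl. Between treatments at 3 wpi, 0 of 9 members were called by edgeR or by DESeq2 in any comparison. Of all genes tested, edgeR called 2.17% higher for IL-4 MSCs against PBS, 2.29% for IL-4 MSCs against MSCs and 0.0817% for MSCs against PBS. An unadjusted p under 0.05 held in that order for 3, 0 and 3 members, and for 2895, 3074 and 981 of the 17131 genes.

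Within treatments, the fall from 1 to 3 wpi was called for 5 of 9 members with PBS (Nlrp3, Aim2, Pycard, Gsdmd, Casp8), 4 with MSCs (Nlrp3, Pycard, Gsdmd, Mlkl) and 9 with IL-4 MSCs, where 4.9%, 4.93% and 16.6% of all genes tested were called lower. With IL-4 MSCs, Mlkl fell by 2.36 ± 0.25 on the log2 scale, Ripk3 by 2.32 ± 0.33, Casp4 by 2.08 ± 0.35, Gsdmd by 1.34 ± 0.13 and Casp8 by 1.29 ± 0.13. Nlrp3 fell by 1.25 ± 0.25 with PBS, by 0.86 ± 0.23 with MSCs and by 0.99 ± 0.23 with IL-4 MSCs. The MSC count rests on single mice. It was 8 without MSC mouse 5 of 3 wpi, 2 without MSC mouse 1 of 1 wpi or mouse 2 of 3 wpi, and 1 without MSC mouse 3 of 1 wpi or mouse 1 or 3 of 3 wpi. Without the 3 libraries richest in S100a9 it was 7. The Aim2 call with PBS was lost without PBS mouse 2 of 1 wpi (edgeR adjusted p = 0.0732) or mouse 1 of 3 wpi (0.108), in a range of 0.00596 to 0.112 over 16 alternatives.

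The difference between treatments itself changed between the weeks for some members. For IL-4 MSCs against MSCs, the 1 wpi difference exceeded the 3 wpi difference for 5 of 9 members (5.96% of all genes tested): by 1.34 ± 0.36 on the log2 scale for Mlkl, 1.49 ± 0.47 for Ripk3, 0.9 ± 0.18 for Casp8, 0.88 ± 0.18 for Gsdmd and 0.38 ± 0.11 for Aim2. The Ripk3 call (edgeR adjusted p = 0.0472) was lost under 18 of 27 alternatives, in a range of 0.00833 to 0.17. For IL-4 MSCs against PBS it did so for 2 of 9 (3.93%), Mlkl by 1.51 ± 0.4 (edgeR adjusted p = 0.0243) and Gsdmd by 0.67 ± 0.19 (adjusted p = 0.0396), with Casp8 at 0.62 ± 0.19 (adjusted p = 0.0561). For MSCs against PBS 0 of 9 were called by edgeR or DESeq2, 0 had an unadjusted p under 0.05, and 0% of all genes tested were called higher. The Casp8 and Gsdmd changes against MSCs had the smallest edgeR adjusted p (0.00165 and 0.00221). Without the 3 libraries richest in S100a9 the count against MSCs was 3, and it was also 3 without MSC mouse 5 or IL-4 MSC mouse 2 of 1 wpi, or IL-4 MSC mouse 5 of 3 wpi. Against PBS it was 0 without PBS mouse 3 or 4 of 3 wpi, and 1 without PBS mouse 1 of 3 wpi, PBS mouse 1 or 4 or IL-4 MSC mouse 2 of 1 wpi, or IL-4 MSC mouse 3 or 4 of 3 wpi.

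The genes whose log2 CPM followed each member most closely over the 34 libraries are given as a description, since the points share the groups and the tissue pieces. Nlrp3 was closest to Tlr13 (Pearson r = 0.928), Clec4d (0.925) and C5ar1 (0.906), all genes of myeloid receptors. Aim2 was closest to Lair1 (0.93), Ikzf1 (0.919) and Irf8 (0.918), the last 2 encoding transcription factors of blood cells. Pycard was closest to Tmem176b, C1qb and Fcer1g (0.958 each), and Casp1 to Mmp8 (0.898), Nrros (0.896) and Sla (0.893). Gsdmd was closest to Ifi35 (0.963), Slfn2 (0.961) and Parp14 (0.96), which are known as interferon-induced genes. Casp8 was closest to Arhgap30 (0.975), Il10ra (0.974) and Elf4 (0.973), and Elf4 (0.914) was also among the 3 closest to Mlkl, with Hfe (0.932) and Dok1 (0.913). Casp4 was closest to Cnn2 (0.934), Plac8 (0.932) and Jak3 (0.93), and Ripk3 to Timp1 (0.931), Lacc1 (0.926) and Rab32 (0.923).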

How the data were processed

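RNA was sequenced as paired 50-base reads, and 34 libraries were analysed here. The authors trimmed adaptors with cutadapt (2.4), checked quality with FastQC (0.11.8), pseudo-aligned the reads with kallisto (0.46) to protein-coding GENCODE transcripts and tested them with sleuth (0.30) in R (3.6.1). The deposited table holds estimated counts per gene, TPM, and the authors' own p-values, q-values and fold changes, which were not used. The estimated counts were rounded to whole numbers and fitted over all 7 groups in one model with edgeR (4.0.16; R 4.3.3), with TMM normalization, filterByExpr and Benjamini-Hochberg adjustment over 17131 genes at a threshold of 0.05. CPM were scaled by the same factors, and log2 CPM for correlations had a prior count of 2. The TPM deposited by the authors served for levels between genes and, for Pycard, for an untested change between groups. P-values and intervals rest on the spread between mice of the same group, estimated in one fit over all 7 groups. This holds also for genes near the floor of 3 counts. The 9 members, the 55 other pathway genes and the marker lists were chosen with earlier results of these data known. All members were named in Sham and in every group at 1 wpi, while levels at 3 wpi are given for some members only. Of each pathway role, the gene with the smallest adjusted p with IL-4 MSCs at 1 wpi against Sham and against PBS was named. Il1b, Il18 and Ripk1 were added, as were some pathway genes whose calls moved without the 3 libraries richest in S100a9. The 3 genes most correlated with each member were also named. Gene positions came from GENCODE vM21 (GRCm38). Alternatives were RLE factors, DESeq2 (1.42.0), no filter (at least 1 count), the compared groups alone, Sham of the same week, a replicate block and leaving out each mouse; a striatum covariate and leaving out 3 libraries were added after the data were seen. The fits were tested on simulated data. A further promoter motif that was searched is not reported here.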

Additional observations from a re-analysis of the deposited data

Results flagged for a closer look

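Of 63 sets of 4 or 5 mice (9 members in 7 groups), 8 held 1 mouse whose distance from its nearest neighbour was a large share of the range of the group; chance gives about 5% of such sets. In Sham they were Casp1 in mouse 2 (0.99 CPM, next 1.36) and Casp4 and Casp8 in mouse 5 (0.71 CPM, next 0.344; 3.49 CPM, next 2.34). At 1 wpi they were Ripk3 in PBS mouse 2 (0.913 CPM, next 0.546), Mlkl in PBS mouse 4 (0.817 CPM, next 0.514) and Nlrp3 in MSC mouse 3 (3.9 CPM, next 2.1). At 3 wpi they were Casp1 in PBS mouse 2 (2.06 CPM, next 1.4) and Casp4 in MSC mouse 5 (1.17 CPM, next 0.377). Of 27 tests of whether a difference between treatments changed from 1 to 3 wpi, 7 passed. Of all genes tested, edgeR called 3.93% higher for IL-4 MSCs against PBS, 5.96% for IL-4 MSCs against MSCs and 0% for MSCs against PBS. The 1 wpi difference between IL-4 MSCs and PBS exceeded that at 3 wpi by 0.67 for Gsdmd and 1.51 for Mlkl on the log2 scale. Between IL-4 MSCs and MSCs the excess was 0.38 for Aim2, 0.88 for Gsdmd, 0.9 for Casp8, 1.49 for Ripk3 and 1.34 for Mlkl. Against PBS, the Gsdmd call was lost under 9 of 26 alternatives and the Mlkl call under 3 of 26. Against MSCs, Ripk3 lost its call under 18 of 27, Aim2 under 3, Mlkl under 1, and Casp8 and Gsdmd under 0.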

How the results depend on the processing

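Under RLE factors, DESeq2, no filter, the compared groups alone, Sham of the same week, the replicate block, the striatum covariate and each omission of mice, no member called with all mice reversed its direction in a comparison where it was called; members not called were not followed. The counts of members called at 1 wpi against Sham and PBS kept within 1.5 times of their values under all of these. Where a count moved, the cause was not tested, except that fits of the compared groups alone, of Sham of 1 week or without a mouse hold fewer libraries. For IL-4 MSCs against Sham at 3 wpi the count was 1 with no filter, 0 with the compared groups alone, 0 with Sham of week 3, 0 with the striatum covariate and 0 to 2 leaving out 1 mouse. For MSCs against Sham at 3 wpi it was 1 with DESeq2 and 0 to 2 leaving out 1 mouse: 2 without Sham mouse 5, and 1 without MSC mouse 1 or 3. For MSCs at 3 against 1 wpi it was 1 with the compared groups alone, 7 without the 3 libraries richest in S100a9 and 1 to 8 leaving out 1 mouse. For IL-4 MSCs against MSCs at 1 wpi it was 8 without those 3 libraries. For the change between weeks it was 1 with the striatum covariate and 0 to 3 leaving out 1 mouse (IL-4 MSCs against PBS), and 3 without those 3 libraries and 3 to 6 leaving out 1 mouse (IL-4 MSCs against MSCs). Same-numbered mice did not deviate together (99 pairs, r from -0.462 to 0.4, 24 over 0.1; 21 of 103 mice correlated best with their own number), so the replicate number pairs no samples; with it as a replicate block the count for IL-4 MSCs against Sham at 3 wpi was 1, and the other 17 counts were within 1.5 times. The library of PBS mouse 5 at 3 wpi, left out by the study, was not analysed here, so a fit with it was not run. Depth limits Mlkl, Ripk3 and Casp4, at 2, 4 and 6 counts in their lowest libraries.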
